A study of Mus musculus with 24 samples.

Results

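The genes described here encode the nuclear subunits of the mitochondrial respiratory chain and of ATP synthase, with a few of their assembly factors. They were taken by name: every gene on the array whose symbol starts with Nduf, Uqcr or Atp5, or with Cox followed directly by 4, 5, 6, 7 or 8. The array names 82 such genes among 16593, and 75 of them were measured, meaning that a probe had a detection p below 0.01 on at least 2 arrays of a set. These are 37 of 39 genes of complex I, 6 of 8 of complex III, 16 of 19 of complex IV (Ndufa4, named for complex I, is placed here) and 16 of 16 of complex V, the ATP synthase. Of the 75, 68 are subunits and 7 are assembly factors or other genes. The 7 genes that were not measured are Cox4i2, Cox7b2, Cox8c, Ndufab1, Ndufb11, Uqcrfs1 and Uqcrq.

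The study profiled RNA of whole diaphragm, the breathing muscle, with 24 Illumina arrays, 1 per mouse, in C57BL/6 mice that were WT, Rag1-/- (labelled RAG, lacking mature T and B cells) or PHIL. PHIL mice lack eosinophils, because a transgene with the eosinophil peroxidase promoter drives a toxin in that lineage. Each strain had 2 naive mice, 3 mice at 2 days and 3 mice at 7 days post infection (dpi), infected by injection of newborn larvae of Trichinella spiralis, a nematode that grows inside muscle cells. The age and sex of the mice are not given in the sources used here. The replicates are separate mice, and with 2 naive mice per strain each change rests on a small naive group.

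Complex I takes electrons from NADH, complex III passes them from coenzyme Q to cytochrome c, and complex IV (cytochrome c oxidase) hands them to oxygen. The 3 complexes pump protons across the inner mitochondrial membrane, and ATP synthase uses the gradient to make ATP. Several small complex IV subunits come in pairs of isoforms: Cox6a2, Cox7a1 and Cox8b are the forms of heart and skeletal muscle, and Cox6a1, Cox7a2 and Cox8a are the forms found in most other tissues. The diaphragm contracts without pause and is rich in mitochondria.

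The Rag1-/- arrays and the WT and PHIL arrays form separate sets that differ in brightness, with median signals of 295.1 to 333.4 and 106.3 to 131.9. Between 42 and 66 probes of each Rag1-/- array lay at 90% or more of that array's maximum, against 1 to 5 probes on the others, so 17 of the 75 genes had a signal near this ceiling on at least 1 Rag1-/- array and 7 of them (Atp5b, Atp5g3, Atp5j2, Cox6a2, Cox8b, Ndufb8 and Uqcr10) on all 8. A change of these genes can be understated there. All 26 skeletal muscle fibre markers were measured. None of 7 eosinophil markers was measured in either set, so the PHIL label could not be checked on them, and the Rag1 probe was at background in all 3 strains apart from 1 PHIL naive array. The Y-linked gene Eif2s3y was detected on 8 of 8 Rag1-/- arrays, 4 of 8 WT arrays and 2 of 8 PHIL arrays, both of the latter at 7 dpi, so the sexes may not be spread evenly over the groups. In RNA of a whole muscle, fewer cells of a type and less RNA per cell cannot be told apart.

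At 7 dpi most of the subunits lay slightly below their naive level in all 3 strains, while the non-muscle isoforms Cox6a1 and Cox8a rose 1.83-fold to 2.77-fold. A gene is called changed where limma's adjusted p was 0.05 or less and the change at least 1.5-fold, 0.59 on the log2 scale. In Rag1-/- mice 12 of 75 genes were called lower and 2 higher, beside 32.7% of 8660 genes called in either direction (15% lower, 17.6% higher). In WT mice 4 of 73 were called lower and 4 higher, beside 28.1% of 8226 genes (11.9% lower, 16.3% higher). In PHIL mice 8 of 73 were called lower and 3 higher, beside 26.3% (11.4% lower, 14.9% higher). With arrays scaled to a common median in place of quantile normalization, which put the median of all genes at 0.38 in WT and 0.40 in PHIL mice, 5 members were called higher and none lower in WT mice, 4 higher and none lower in PHIL mice, and 2 higher and 19 lower in Rag1-/- mice. The shares of all genes called under that scaling were not counted, so these counts have no background beside them. The falls described for WT and PHIL mice are falls relative to most genes. With Eif2s3y as covariate no member was called in Rag1-/- mice. Its signal was 892.1 to 946.6 in naive and 664.2 to 765.3 in 7 dpi Rag1-/- mice, without overlap. That fit therefore cannot separate the covariate from infection. Without Rag1-/- naive replicate 1, naive replicate 2 or 7 dpi replicate 1 the number called was 8, 9 and 9 in place of 14. At the thresholds used, the shares of members called were thus close to or under the shares of all genes called. What the members had in common at these thresholds was a small shift rather than many calls. Without a minimum fold, 2 members were called higher and 22 lower in Rag1-/- mice, 4 and 22 in WT mice, and 3 and 34 in PHIL mice. The share of all genes was not counted at that setting. The members' median log2 change was -0.27 in Rag1-/-, -0.17 in WT and -0.27 in PHIL mice, against -0.09, -0.06 and -0.07 over all genes tested. The value was below zero for 63 of 75, 61 of 73 and 62 of 73 members. As the negative medians show, it was below zero for most of all genes too, but for a smaller share. Of all genes with naive levels over 2-fold apart between Rag1-/- and WT arrays, 66.9%, 55.5% and 64.1% were below zero. Among the remaining genes 54.5%, 54.4% and 54.9% were.

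**Figure D1:**
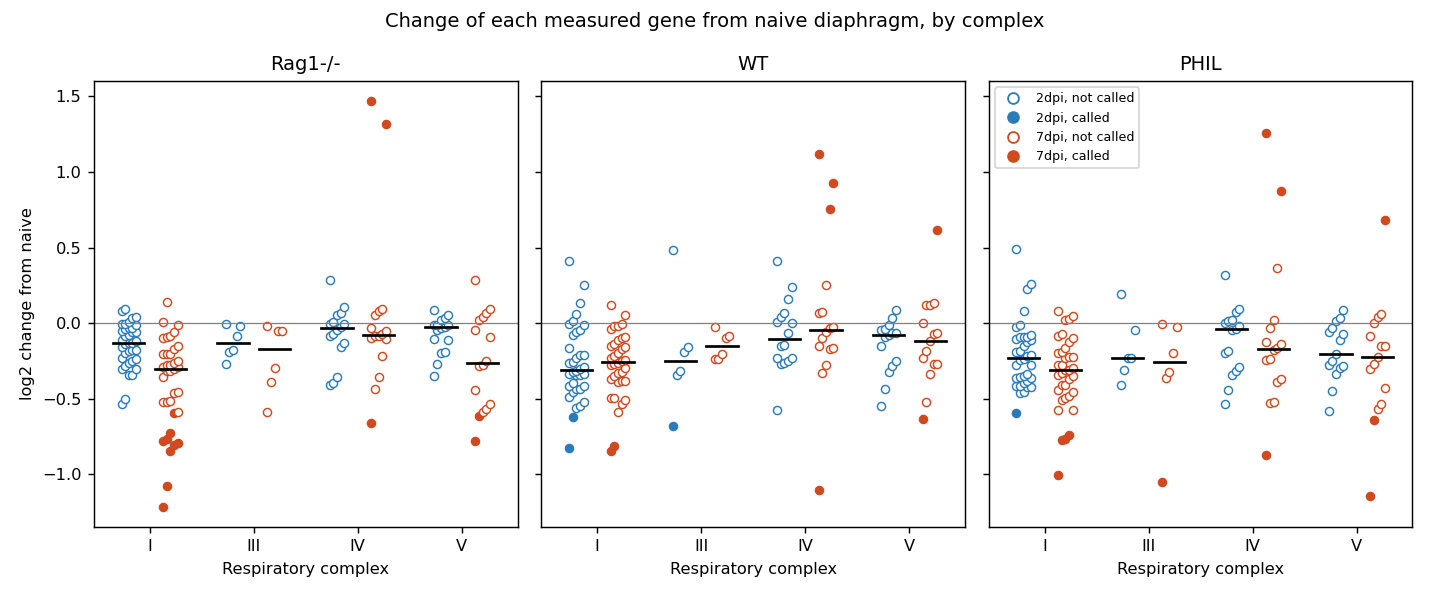
Log2 change of each gene at 2 and 7 dpi against naive mice of the same strain, by complex; each point is 1 gene and filled points are called. Most points lie a little below zero, and Cox6a1 and Cox8a stand at the top of complex IV at 7 dpi in each strain.

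In 54 of the 73 genes measured in all 3 strains, the mean at 7 dpi was below the naive mean in every strain, where 41.2% of all genes were. Only Cox7b and Atp5e were called lower in all 3 strains, where 4.71% of all genes were. Neither was called in all 3 with median scaling, without background correction or on the authors' normalised values. Cox6a1 and Cox8a were called higher in all 3, where 10.2% of all genes were. No member was called in opposite directions in different strains. Looking at single arrays, every 7 dpi array was below every naive array for 50 of 75 members in Rag1-/- mice (37% of all genes), 40 of 73 in WT mice (35.6%) and 50 of 73 in PHIL mice (36%).

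The promoters of 64 of the 75 genes were found in RefSeq (GRCm38.p6), as 69 windows of 250 bases before to 50 bases from the transcription start on. They were searched on both strands for the letters of binding motifs of factors known for genes of mitochondria or muscle: GCGC, any base and then TGCGC of NRF1, CCGGAAG of ETS factors such as GABPA, TNAAGGTCA of the estrogen-related receptors, CAGCTG, an E-box of muscle factors, and AANATGGC of YY1. The NRF1 letters were in 23.2% of the members' windows and in 4.6% of all 32851, the ETS letters in 21.7% and 8.86%, the YY1 letters in 24.6% and 6.05%, the letters of the estrogen-related receptors in 2.9% and 1.28%, and the E-box in 7.25% and 16.3%. Where motifs overlap, the shared bases count for each. The windows of the genes the results turn on are given 5′ to 3′ on the gene's strand, with matched letters in capitals. Cox6a1 holds 2 NRF1 matches and an ETS match, Cox8a 2 ETS matches, and its muscle counterpart Cox8b 2 E-boxes and none of the other motifs. Neither the muscle form Cox7a1 nor its counterpart Cox7a2 holds any of these motifs, and no window was found for Cox6a2. Atp5o, which rose in 2 strains, holds an NRF1 match, while Cox7b and Atp5e, which fell in all 3 strains, hold a YY1 and an ETS match. A match describes letters and is no measured binding. They lie at chr5:115348909-115349208 (Cox6a1, minus strand), chr19:7217567-7217866 (Cox8a, minus), chr7:140900397-140900696 (Cox8b, minus), chr16:91931581-91931880 (Atp5o, minus), chrX:106015450-106015749 (Cox7b, plus) and chr2:174464052-174464351 (Atp5e, minus).
Cox6a1: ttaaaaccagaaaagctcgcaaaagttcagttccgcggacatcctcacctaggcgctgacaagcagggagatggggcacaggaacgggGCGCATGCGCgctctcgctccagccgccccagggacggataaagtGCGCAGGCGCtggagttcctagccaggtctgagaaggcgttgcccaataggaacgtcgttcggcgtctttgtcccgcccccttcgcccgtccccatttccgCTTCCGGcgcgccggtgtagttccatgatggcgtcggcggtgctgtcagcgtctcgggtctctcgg
Cox8a: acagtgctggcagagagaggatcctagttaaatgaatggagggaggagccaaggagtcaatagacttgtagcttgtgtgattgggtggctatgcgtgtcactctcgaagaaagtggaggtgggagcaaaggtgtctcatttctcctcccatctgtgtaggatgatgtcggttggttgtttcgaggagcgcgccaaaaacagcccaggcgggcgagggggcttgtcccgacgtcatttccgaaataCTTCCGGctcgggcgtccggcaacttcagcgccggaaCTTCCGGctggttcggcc
Cox8b: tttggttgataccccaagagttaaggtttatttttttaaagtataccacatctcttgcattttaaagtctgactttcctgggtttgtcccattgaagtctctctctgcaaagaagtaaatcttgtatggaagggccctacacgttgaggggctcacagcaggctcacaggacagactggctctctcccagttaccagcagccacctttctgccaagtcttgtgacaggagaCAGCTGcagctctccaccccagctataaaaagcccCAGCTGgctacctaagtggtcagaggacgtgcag
Atp5o: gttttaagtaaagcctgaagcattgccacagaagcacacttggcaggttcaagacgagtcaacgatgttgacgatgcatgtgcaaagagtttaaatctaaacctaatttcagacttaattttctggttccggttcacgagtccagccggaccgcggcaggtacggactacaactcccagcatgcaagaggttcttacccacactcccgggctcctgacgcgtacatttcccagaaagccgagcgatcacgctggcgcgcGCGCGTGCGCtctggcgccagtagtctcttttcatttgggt
Cox7b: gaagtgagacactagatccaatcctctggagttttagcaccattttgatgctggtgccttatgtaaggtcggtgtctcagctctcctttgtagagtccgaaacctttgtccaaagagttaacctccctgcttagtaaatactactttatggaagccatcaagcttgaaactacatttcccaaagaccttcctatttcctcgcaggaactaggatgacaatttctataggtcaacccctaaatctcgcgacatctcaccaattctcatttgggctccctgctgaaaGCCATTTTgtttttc
Atp5e: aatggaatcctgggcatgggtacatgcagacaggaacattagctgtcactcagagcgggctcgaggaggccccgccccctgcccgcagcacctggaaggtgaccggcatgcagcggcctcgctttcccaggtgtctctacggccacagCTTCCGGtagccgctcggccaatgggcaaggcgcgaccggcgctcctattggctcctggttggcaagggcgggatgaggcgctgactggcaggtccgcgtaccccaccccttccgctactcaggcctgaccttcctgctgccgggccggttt

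Within complex IV, the non-muscle isoforms Cox6a1 and Cox8a rose at 7 dpi, while Cox7a2 and the 3 muscle forms were not called. Cox6a1, the non-muscle form of subunit VIa, had log2 signals of 12.39 and 12.27 in naive Rag1-/- mice, 12.47, 12.25 and 12.43 at 2 dpi, and 13.71, 13.75 and 13.49 at 7 dpi. In WT mice the log2 signals were 10.30 and 10.38 in naive mice, 10.45, 10.32 and 10.37 at 2 dpi, and 11.44, 11.59 and 11.34 at 7 dpi. In PHIL mice they were 10.42 and 10.40, then 10.52, 10.39 and 10.37, then 11.84, 11.48 and 11.67. All 9 arrays at 7 dpi thus stood above all others of their strain, and the arrays at 2 dpi lay at the naive level. The rise was 2.49-fold in Rag1-/- mice (log2 1.32, SE 0.139, adjusted p 0.000456), 2.17-fold in WT mice (1.12, SE 0.117, adjusted p 6.02e-06) and 2.39-fold in PHIL mice (1.26, SE 0.117, adjusted p 2.51e-06). A second Cox6a1 probe gave log2 changes of 1.32, 1.02 and 1.19.

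Cox8a, the non-muscle form of subunit VIII, also rose at 7 dpi. Its log2 signals in Rag1-/- mice were 13.07 and 13.15 in naive mice, 13.35, 13.50 and 13.34 at 2 dpi, and 14.69, 14.74 and 14.31 at 7 dpi. In WT mice they were 11.84 and 11.99, then 11.77, 11.93 and 12.07, then 12.77, 13.03 and 12.73. In PHIL mice they were 11.952 and 12.004, then 12.02, 12.05 and 12.09, then 13.02, 12.71 and 12.82. The 7 dpi arrays were again the 3 highest of each strain, and at 2 dpi all 3 arrays already lay above both naive arrays in Rag1-/- and PHIL mice, without a call. The rise was 2.77-fold in Rag1-/- mice (log2 1.47, SE 0.158, adjusted p 0.0005), 1.90-fold in WT mice (0.93, SE 0.127, adjusted p 6.47e-05) and 1.83-fold in PHIL mice (0.87, SE 0.127, adjusted p 0.000114).

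Their muscle counterparts are among the brightest probes. Cox6a2 had log2 signals of 15.80 and 15.74 in naive WT mice and 15.74 in each of the 3 WT mice at 7 dpi, and 15.80 and 15.80 against 15.69, 15.80 and 15.80 in PHIL mice. Cox8b had 15.11 and 14.96 against 14.92, 14.94 and 15.14 in WT mice, and 15.11 and 15.27 against 15.02, 14.91 and 14.94 in PHIL mice. Only Cox8b in PHIL mice had groups that did not overlap, and neither gene was called. Cox6a2 was near the ceiling on 14 of these 16 WT and PHIL arrays too, and Cox8b on 0. On Rag1-/- arrays both genes lay near the ceiling on all 8 arrays, at 15.96 to 16.07 for Cox6a2 and 16.02 to 16.10 for Cox8b, so their values there say little about a change.

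The third pair behaved differently. Cox7a1, the muscle form of subunit VIIa, had log2 signals of 14.86 and 14.88 in naive WT mice and 14.55, 14.52 and 14.55 at 7 dpi, and of 14.94 and 14.84 against 14.50, 14.52 and 14.54 in PHIL mice. Its counterpart Cox7a2 had 6.80 and 6.71 against 6.54, 6.90 and 7.02 in WT mice, and 6.76 and 6.81 against 6.42, 6.24 and 6.11 in PHIL mice. Cox7a1 was thus lower at 7 dpi on every array of both strains, while Cox7a2 was lower in PHIL mice and overlapped in WT mice. Neither gene was called at 7 dpi.

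The shift of each pair was tested as the muscle form minus the non-muscle form on the log2 scale, with exact two-sided permutation tests that reassigned arrays within each strain (6 tests, 1000 arrangements each, smallest possible p 0.001). At 7 dpi Cox6a2 minus Cox6a1 had shifted by -1.22 against naive mice over the 3 strains (Rag1-/- -1.22, WT -1.15, PHIL -1.29), with a permutation p of 0.001, the smallest possible, and 0.003 after Benjamini-Hochberg adjustment. Cox8b minus Cox8a shifted by -1.19 (-1.50, -0.96 and -1.11), with the same p of 0.001 and adjusted p of 0.003. Cox7a1 minus Cox7a2 shifted by 0.03 (0.34, -0.40 and 0.16), with permutation p 0.788. At 2 dpi no pair passed: the shifts were 0.01, -0.08 and -0.27 for the pairs of subunits VIa, VIII and VIIa, with adjusted permutation p of 0.788, 0.5235 and 0.3. In WT and PHIL mice alone, an alternative chosen after seeing the ceiling of the Rag1-/- arrays, the shifts at 7 dpi were -1.22 for VIa and -1.03 for VIII (adjusted permutation p 0.02 for both, 100 arrangements). There Cox7a1 minus Cox7a2 shifted by -0.57 at 2 dpi (adjusted permutation p 0.02). With Cox6a2 and Cox8b near the ceiling on the Rag1-/- arrays, the shifts of VIa and VIII there hold the rise of the non-muscle form and little that could be seen of the muscle form. On most WT and PHIL arrays Cox6a2 was among the 1 to 5 probes at 90% or more of the array's own maximum. Whether its signal was capped there was not tested. The shift of VIII in WT and PHIL mice is the one with both genes below that mark on every array.

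**Figure D2:**
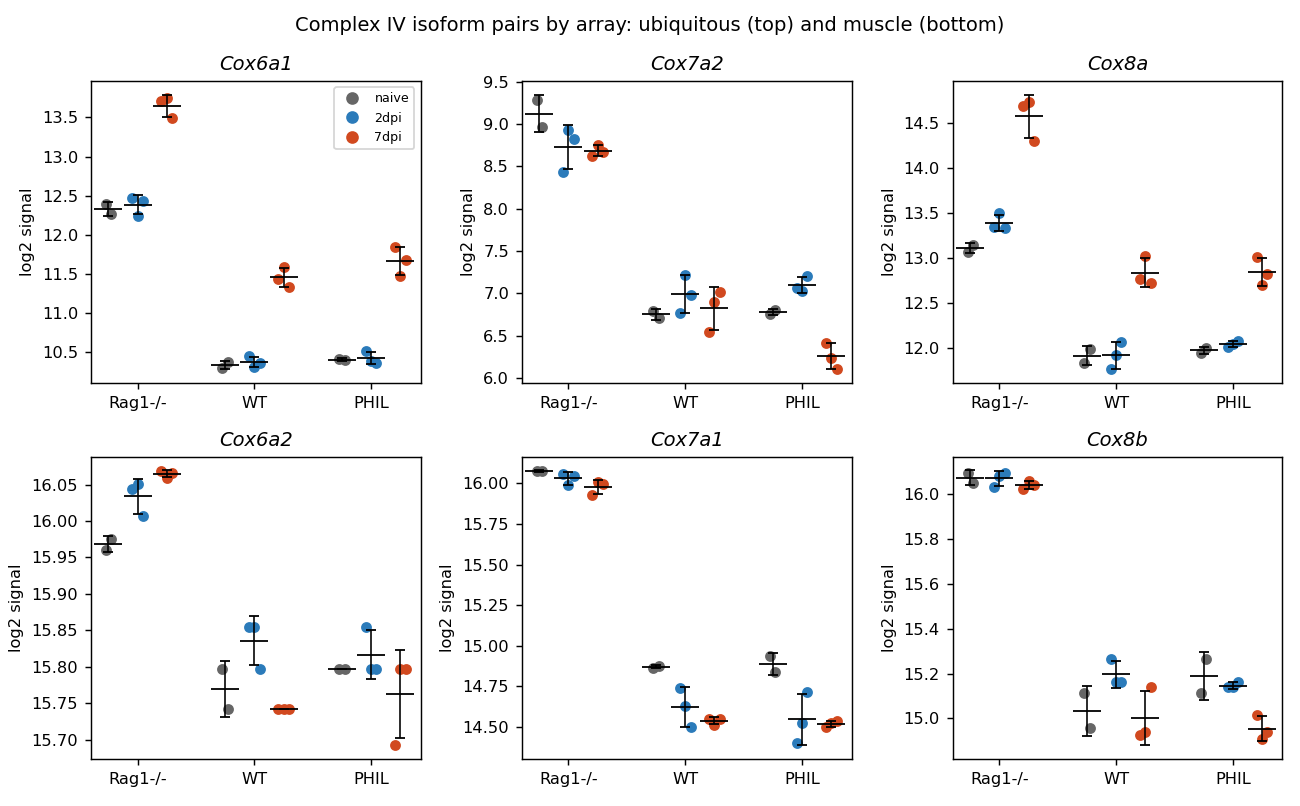
Log2 signal of the muscle and the non-muscle form of complex IV subunits VIa, VIIa and VIII on each of 24 arrays, by strain and time. Cox6a1 and Cox8a step up at 7 dpi in each strain, while Cox6a2 and Cox8b stay near the top of the scale.

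Other complex IV genes moved less, with medians over the 16 genes of -0.08 in Rag1-/-, -0.05 in WT and -0.17 in PHIL mice at 7 dpi. The exception was Cox7b, a small subunit with no muscle form. Its log2 signals were 12.35 and 12.16 in naive Rag1-/- mice, 11.74, 12.19 and 11.75 at 2 dpi and 11.59, 11.68 and 11.52 at 7 dpi. In WT mice they went from 7.36 and 7.34 through 6.73, 6.60 and 6.98 to 6.43, 6.12 and 6.18, and in PHIL mice from 7.32 and 7.21 through 6.63, 6.73 and 6.85 to 6.21, 6.64 and 6.34. Cox7b was lower at 7 dpi than in naive mice on every array of each strain, and in WT mice each step was free of overlap. It fell by 0.66 on the log2 scale in Rag1-/- mice (SE 0.168, adjusted p 0.0215), by 1.10 in WT mice (SE 0.146, adjusted p 4.85e-05) and by 0.87 in PHIL mice (SE 0.146, adjusted p 0.000353). The Rag1-/- call was lost without either naive array, without 7 dpi replicate 1 or 3, or with replicate number as a block. Median scaling ended the calls in WT and PHIL mice. That in PHIL mice was also lost without background correction or on the authors' normalised values. Cox6b2, the testis form of subunit VIb, was called higher in WT mice at 7 dpi (log2 change 0.76, SE 0.151, adjusted p 0.0012), but its probe was not above background in naive WT mice. It is therefore at least 1.20-fold higher, a bound set against the lowest signal detected on each array.

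Complex I held 9 of 12, 2 of 4 and 4 of 8 of the members' calls toward lower levels at 7 dpi in Rag1-/-, WT and PHIL mice. These are 24.3%, 5.56% and 11.1% of its measured genes, beside 15%, 11.9% and 11.4% of all genes. Its median log2 change at 7 dpi was -0.30 over 37 genes in Rag1-/- mice, -0.26 over 36 genes in WT mice and -0.31 over 36 genes in PHIL mice, and none of its genes was called higher. The largest called falls in Rag1-/- mice were of Ndufaf5, an assembly factor, and Ndufs1, the iron-sulfur subunit that is the largest of the complex. Ndufaf5 had log2 signals of 9.31 and 9.01 in naive Rag1-/- mice, 8.65, 8.78 and 8.54 at 2 dpi, and 7.91, 7.90 and 8.04 at 7 dpi. Ndufs1 had 8.17 and 8.17, then 7.76, 7.98 and 7.17, then 7.01, 6.97 and 7.31. Both were lower at 7 dpi than in naive mice without overlap. The fall was 2.32-fold for Ndufaf5 (log2 -1.21, SE 0.143, adjusted p 0.000761) and 2.11-fold for Ndufs1 (-1.08, SE 0.234, adjusted p 0.0111), which was measured on Rag1-/- arrays only and whose call was lost without either naive array. The Ndufs1 call was also lost without background correction or on the authors' normalised values, and its change came to -0.35 at the least over the alternatives. The other 7 called in Rag1-/- mice were the assembly factor Ndufaf1, the matrix arm subunits Ndufs4 and Ndufa5, and the membrane arm subunits Ndufb2, Ndufb4, Ndufb9 and Ndufb10, with log2 changes from -0.84 to -0.60.

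In PHIL mice the 4 complex I genes called lower were Ndufb2, Ndufb5, Ndufb9 and Ndufb10, all accessory subunits of the membrane arm. Ndufb2 had log2 signals of 6.98 and 7.07 in naive PHIL mice, 6.80, 7.29 and 7.66 at 2 dpi, and 6.19, 5.89 and 5.97 at 7 dpi. Ndufb5 had 9.10 and 9.05, then 8.99, 8.83 and 9.10, then 8.29, 8.19 and 8.44. For both, only the 7 dpi arrays stood apart. The falls were 2.01-fold for Ndufb2 (log2 -1.01, SE 0.216, adjusted p 0.0021) and 1.70-fold for Ndufb5 (-0.77, SE 0.124, adjusted p 0.000266). With median scaling neither was called, with Ndufb5 at -0.23, and Ndufb2 was also not called without background correction or on the authors' normalised values. In WT mice the 2 called lower were Ndufb4 and Ndufv3, an accessory subunit of the NADH-binding tip. Ndufb4 changed by -0.85 (SE 0.224, adjusted p 0.00728) with a probe detected on 1 of 2 naive arrays and 1 of 3 arrays at 7 dpi. The Ndufv3 probe used was not above background in WT mice at 7 dpi, which leaves a fall of at least 1.46-fold, and the 2 brighter probes of this gene, detected on every array, gave -0.32 and -0.38. Neither WT call of complex I therefore rests on a well measured probe.

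Complex III had 6 genes measured and a single call at 7 dpi, Uqcrb in PHIL mice. The medians were -0.17, -0.15 and -0.26 in Rag1-/-, WT and PHIL mice. Uqcrb, a small subunit next to the ubiquinone site, had log2 signals in PHIL mice of 8.90 and 8.88 in naive mice, 8.94, 9.25 and 9.07 at 2 dpi, and 8.03, 7.79 and 7.71 at 7 dpi. In WT mice the signals were 8.70 and 8.71, then 9.07, 9.26 and 9.25, then 8.25, 8.65 and 8.97. The 3 PHIL arrays at 7 dpi lay below all others, whereas the WT arrays at 7 dpi spread over both sides of the naive ones. The fall in PHIL mice was 2.07-fold (log2 -1.05, SE 0.17, adjusted p 0.000274) and was not called with median scaling. In Rag1-/- mice Uqcrb went from 11.67 and 11.64 to 10.91, 11.14 and 11.16, a change of -0.59 that was just short of the fold required (adjusted p 0.013).

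ATP synthase, complex V, had genes called in both directions. Atp5e, the epsilon subunit of the F1 head, had log2 signals of 7.34 and 7.29 in naive PHIL mice, 7.07, 7.08 and 6.96 at 2 dpi, and 6.29, 5.97 and 6.26 at 7 dpi. In WT mice they were 7.14 and 7.38, then 7.08, 7.30 and 7.20, then 6.65, 6.53 and 6.69, and in Rag1-/- mice 10.95 and 11.12, then 10.99, 10.88 and 10.92, then 10.18, 10.60 and 10.47. In each strain the 7 dpi arrays were the 3 lowest. The fall was 2.20-fold in PHIL mice (log2 -1.14, SE 0.121, adjusted p 7.64e-06), 1.55-fold in WT mice (-0.63, SE 0.121, adjusted p 0.00085) and 1.53-fold in Rag1-/- mice (-0.62, SE 0.151, adjusted p 0.0186). With median scaling it was called in no strain, the Rag1-/- call was also lost without either naive array or 7 dpi replicate 1, and the WT call without naive replicate 2 or 7 dpi replicate 2, without background correction, with a larger offset after it, or on the authors' normalised values.

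Atp5o, which forms the top of the stalk that holds the F1 head in place, went the other way. Its log2 signals in WT mice were 7.83 and 8.28 in naive mice, 7.61, 7.80 and 7.79 at 2 dpi, and 8.73, 8.57 and 8.71 at 7 dpi. In PHIL mice they were 8.22 and 8.08, then 7.90, 7.78 and 7.77, then 8.83, 8.83 and 8.82. Only the 7 dpi arrays were above the naive ones, and the 2 dpi arrays were the lowest. The rise at 7 dpi was 0.62 in WT (SE 0.126, adjusted p 0.0014) and 0.68 in PHIL mice (SE 0.126, adjusted p 0.000751) on the log2 scale, and in Rag1-/- mice the change was 0.29 (adjusted p 0.142). The WT call was lost without naive replicate 1 or 7 dpi replicate 1, or with a larger offset after background correction. Both calls were lost without background correction or on the authors' normalised values. Further calls were those of Atp5j, coupling factor 6 of the same stalk, in Rag1-/- mice (10.93 and 10.79 naive against 10.03, 10.02 and 10.17, log2 change -0.78, adjusted p 0.00666) and Atp5a1, the alpha subunit, in PHIL mice (-0.64, adjusted p 0.0037). The 3 Atp5j probes ranged from -0.20 to -0.78 in Rag1-/- mice. For Atp5a1 the call was lost with median scaling, without background correction or with a larger offset after it. It was also lost on the authors' normalised values or without PHIL naive replicate 1. Medians over complex V were -0.26, -0.12 and -0.23 in Rag1-/-, WT and PHIL mice.

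**Figure D3:**
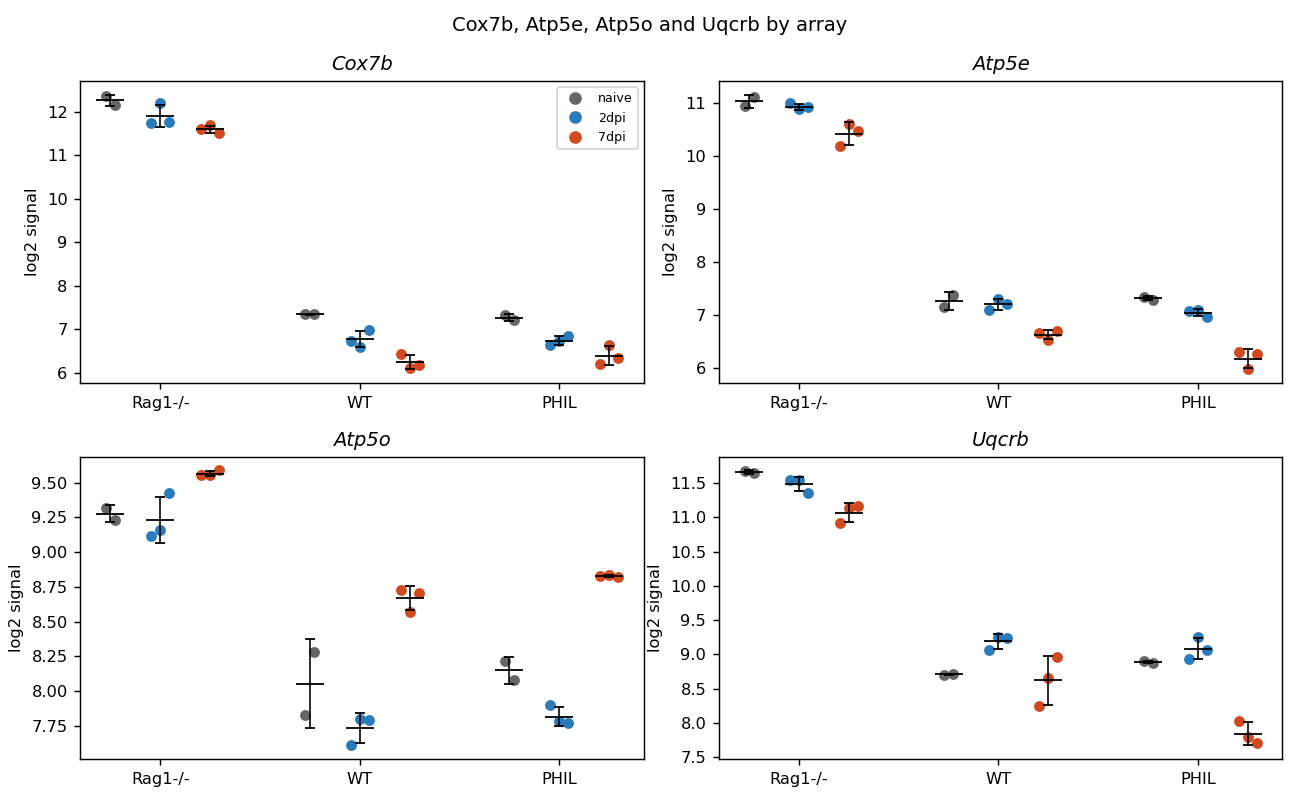
Log2 signal of Cox7b, Atp5e, Atp5o and Uqcrb on each array, with mean and SD of each group (n = 2 naive, n = 3 at 2 and 7 dpi). Cox7b and Atp5e are lowest at 7 dpi in each strain, Atp5o is highest at 7 dpi, and Uqcrb falls below its naive level on all 3 PHIL arrays at 7 dpi.

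Many bright members hardly moved. In WT mice at 7 dpi the smallest changes per complex were those of Ndufb8 (-0.00) in complex I, Uqcrc2 (-0.03), a core protein of complex III, Cox6a2 (-0.03) and Atp5j2 (-0.00). In PHIL mice they were Ndufa13 (0.02), Uqcrc2 (-0.01), Cox5b (0.02) and Atp5b (-0.00), the catalytic beta subunit, whose probe was near the ceiling on all 16 WT and PHIL arrays. In Rag1-/- mice they were Ndufa13 (0.01), Uqcr10 (-0.02), Cox8b (-0.03) and Atp5j2 (0.02), and all of them were near the ceiling on at least 1 array. The 17 genes near the ceiling had a median change of -0.04 in Rag1-/- mice, against -0.31 for the other 58. The same 17 genes also had the smaller median in WT mice (-0.03 against -0.23) and in PHIL mice (-0.07 against -0.33), where nearly all of them lie below the ceiling. No call was among these 17 genes in any of the 3 strains.

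**Figure D4:**
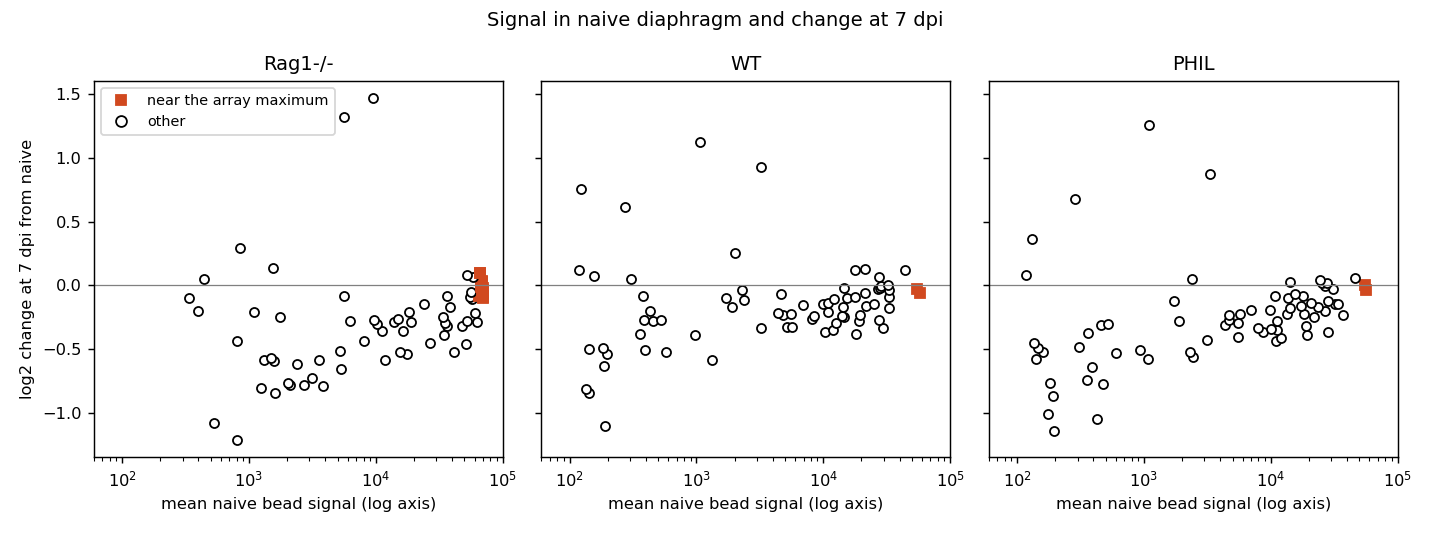
Log2 change at 7 dpi against the mean naive bead signal of each gene (log axis) in Rag1-/-, WT and PHIL mice. Squares mark genes near the ceiling on at least 1 naive or 7 dpi array of the strain shown. The brightest genes lie close to zero in all 3 strains, and the larger falls are at lower signals.

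At 2 dpi the shift was already present in WT and PHIL mice, with few calls. The members' median log2 change was -0.23 in WT mice (58 of 73 below zero), -0.21 in PHIL mice (60 of 73) and -0.08 in Rag1-/- mice (61 of 75), against -0.05, -0.06 and -0.06 over all genes. Of all genes with naive levels over 2-fold apart between Rag1-/- and WT arrays, 45.7%, 46.8% and 67.3% were below zero in the same order. Among the remaining genes 54.5%, 56% and 55.8% were. In WT mice 3 members were called lower and none higher, beside 23.4% of all genes called (10.3% lower, 13.1% higher). In PHIL mice 1 was called lower and none higher, beside 18.5% (7.94% lower, 10.6% higher). In Rag1-/- mice limma called none, beside 9.86% (3.06% lower, 6.8% higher), with 3 members at an unadjusted p under 0.05. With median scaling 5 members were called higher and none lower in WT mice, and 1 higher and none lower in PHIL mice. Without a minimum fold, 1 member was called higher and 26 lower in WT mice, 0 and 22 in PHIL mice, and 0 and 1 in Rag1-/- mice. The shares of all genes were not counted under either setting. At the thresholds used, the WT calls were Uqcrc1, a core protein of complex III, Ndufaf7, an assembly factor of complex I, and Ndufv3, which was also the PHIL call.

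Uqcrc1 had log2 signals of 13.60 and 13.58 in naive WT mice, 12.99, 12.86 and 12.88 at 2 dpi, and 13.55, 13.15 and 13.45 at 7 dpi. Ndufaf7 had 8.60 and 8.57, then 8.11, 7.93 and 7.87, then 8.13, 8.13 and 8.36. Uqcrc1 was low at 2 dpi and mostly back near its naive level at 7 dpi, and Ndufaf7 stayed under its naive level on all 6 infected arrays. Their changes at 2 dpi were -0.68 (SE 0.13, adjusted p 0.00108) and -0.62 (SE 0.127, adjusted p 0.00174). Both calls were lost with median scaling, and that of Ndufaf7 also without 2 dpi replicate 3, without background correction, with a larger offset after it, or on the authors' normalised values. For Ndufv3 the probe was not above background at 2 dpi, which leaves a fall of at least 1.28-fold in WT mice (measured log2 change -0.83, adjusted p 0.0067) and at least 1.25-fold in PHIL mice (-0.59, adjusted p 0.0438). The Ndufv3 call in PHIL mice was lost in 18 of 22 alternatives, among them the fits without any 1 array of its groups, and the call in WT mice in 9 of 22. Every 2 dpi array was below every naive array for 43 of 73 members in WT mice (33.7% of all genes), 44 of 73 in PHIL mice (33%) and 22 of 75 in Rag1-/- mice (23%). By complex, the medians at 2 dpi were -0.31 in WT, -0.23 in PHIL and -0.13 in Rag1-/- mice for complex I and -0.10, -0.04 and -0.03 for complex IV.

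Between 2 and 7 dpi members were called in both directions in each strain. In PHIL mice 10 members were called lower and 4 higher, beside 20.2% of all genes (9.53% lower, 10.7% higher). In Rag1-/- mice 5 were called lower and 2 higher, beside 22.9% (9.08% lower, 13.9% higher), and in WT mice 1 lower and 4 higher, beside 18.5% (8.04% lower, 10.5% higher). With median scaling the calls were 4 lower and 4 higher in PHIL, 2 and 2 in Rag1-/- and 0 and 4 in WT mice, and without background correction 4 and 3, 0 and 2, and 0 and 3. For these alternatives the shares of all genes called were not counted. In PHIL mice the largest falls were of Uqcrb (log2 change -1.24, SE 0.15) and Ndufb2 (-1.23, SE 0.19), and in WT mice the 1 fall was of Ndufb2 (-0.67, SE 0.19). Cox6a1 and Cox8a rose over this step in each strain, by 1.27 and 1.18 in Rag1-/-, 1.08 and 0.92 in WT, and 1.24 and 0.80 in PHIL mice on the log2 scale. Atp5o rose by 0.94 in WT and 1.01 in PHIL mice.

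The direct comparison of PHIL with WT mice asks whether the absence of eosinophils changed these genes. In naive mice limma called no member, beside 0% of all genes, with 1 member at an unadjusted p under 0.05, and at 2 dpi none was called, beside 0%, with 0 members at an unadjusted p under 0.05. At 7 dpi 1 member was called lower and none higher, beside 0.535% of all genes (0.438% lower, 0.0973% higher), with 12 at an unadjusted p under 0.05. It was Uqcrb, lower in PHIL than in WT mice by 1.72-fold (log2 -0.78, SE 0.152, adjusted p 0.0377), with all 3 PHIL arrays below all 3 WT arrays, as for 11% of all genes. The call was lost without WT replicate 2 or 3, or without PHIL replicate 2 or 3, at 7 dpi, and its adjusted p ranged from 0.0018 to 0.156 over the alternatives. Ndufb2 (-0.85, adjusted p 0.0583) and Atp5e (-0.45, adjusted p 0.0668) were lower in PHIL mice without passing. In a fit with Eif2s3y as covariate Uqcrb was not called.

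The difference between the PHIL and the WT response to infection was called for no member, at 2 dpi (0.0122% of all genes, 0 members at an unadjusted p under 0.05) or at 7 dpi (0% of all genes, 7 members at an unadjusted p under 0.05). For Uqcrb the difference of responses at 7 dpi was -0.96 (95% interval -1.50 to -0.43, adjusted p 0.188). The Rag1-/- response minus the WT response, fitted on all 24 arrays, was called for no member at 2 dpi (5.46% of all genes, 3.49% lower and 1.97% higher, with 15 members at an unadjusted p under 0.05) and for 1 at 7 dpi (1.87% of all genes, 0.979% lower and 0.89% higher), Ndufaf5 (-1.03, SE 0.198, adjusted p 0.015). The Ndufaf5 probe was detected on 8 of 8 Rag1-/- arrays and 0 of 16 WT and PHIL arrays, so no WT response could be read from it.

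Most genes called lower were ones whose naive signal differed between the Rag1-/- and the WT arrays. With all 24 arrays normalised together, 17 of 75 members differed by over 2-fold between naive Rag1-/- and naive WT mice (22.7%, against 8.3% of all genes), and 16 of them were brighter on the Rag1-/- arrays. For Atp5a1, whose probe was detected on every array, the signals were 10626.8 and 13155.9 in naive Rag1-/- mice and 331.3 and 438.7 in naive WT mice. For Atp5j, Atp5k, Ndufaf5 and Ndufs1 the probe in this comparison was detected on 0 of 16 WT and PHIL arrays, so the size of the difference is not known. Between naive PHIL and naive WT mice, 0 of 75 members differed by over 2-fold. The Rag1-/- strain and its set of arrays cannot be told apart.

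These 17 genes held 10 of the 12 calls toward lower levels at 7 dpi in Rag1-/- mice, 4 of 4 in WT mice and 7 of 8 in PHIL mice, and none of the rises. Over all genes that differed in this way, 25.9%, 18.1% and 17.4% were called lower in Rag1-/-, WT and PHIL mice, against 14.1%, 11.4% and 11% of the other genes. Their median change was -0.62 in Rag1-/- mice against -0.16 for the other 58 members, and -0.49 against -0.15 in WT mice and -0.58 against -0.20 in PHIL mice for the 15 measured there. For Atp5j and Ndufaf5, which are among the 15, the probe used on the WT and PHIL arrays was not the one used for the comparison of levels. The naive Rag1-/- and WT arrays enter both the choice of these genes and the Rag1-/- and WT changes, whereas the PHIL change shares no array with the choice. Among the members outside this group the calls toward lower levels were 2 in Rag1-/-, 0 in WT and 1 in PHIL mice. The small shift below zero remained there, in 46, 49 and 47 of 58 members, beside 54.5%, 54.4% and 54.9% of all genes outside the group.

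On single arrays, the median level of the 15 genes, relative to their mean over 16 arrays, was 0.25 and 0.28 in naive WT mice, -0.24, -0.13 and 0.01 in WT mice at 7 dpi, 0.25 and 0.17 in naive PHIL mice, and -0.47, -0.44 and -0.43 in PHIL mice at 7 dpi. The 3 PHIL arrays at 7 dpi were the lowest of the 16. The median of the other 58 members kept within -0.11 and 0.15 on the same arrays. In PHIL against WT mice at 7 dpi the 15 genes had a median of -0.38, with 10 below zero, and the other 58 of -0.03, with 35 below zero. All 541 genes over 2-fold apart had a median of -0.08, against 0.007 for all other genes. Of these 2 groups 60.6% and 48.6% were below zero, and 2.22% and 0.312% were called lower. Whether probe, RNA or strain sets these genes apart was not tested.

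**Figure D5:**
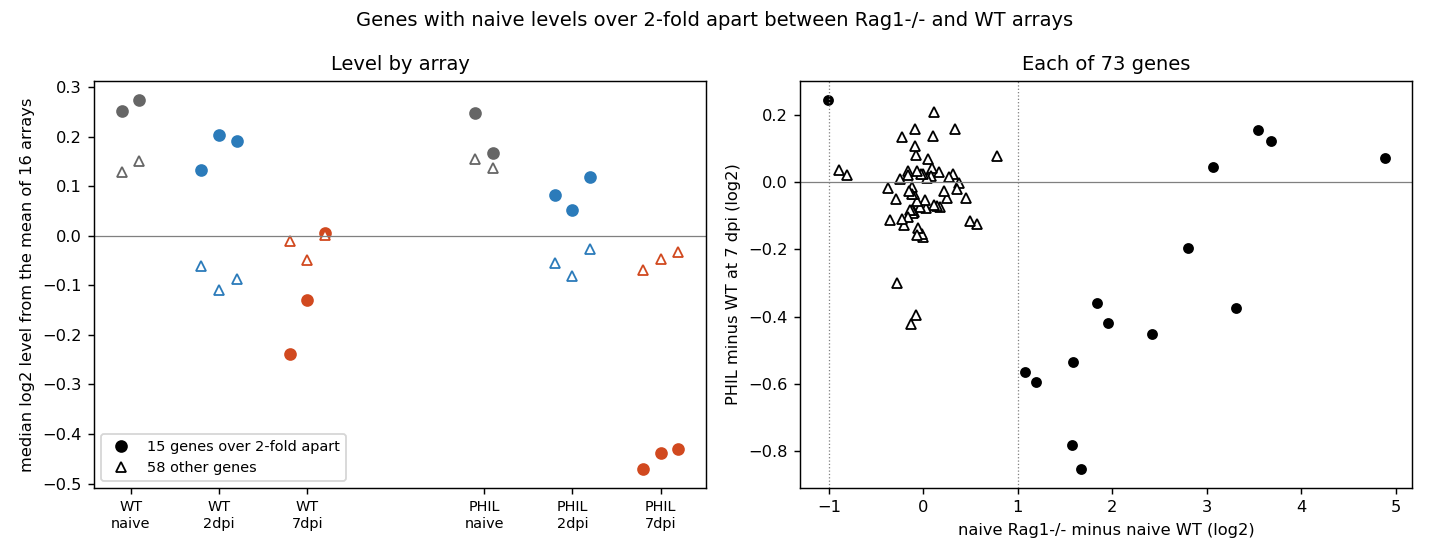
Left, median log2 level on each WT and PHIL array, relative to the mean of the 16 arrays, of the 15 genes over 2-fold apart between naive Rag1-/- and naive WT arrays (filled circles) and of the 58 others (triangles). Right, PHIL minus WT at 7 dpi against the naive Rag1-/- minus WT difference, 1 point per gene, with dotted lines at 2-fold and no exact horizontal position for genes not detected on WT arrays. On the left, the median of the 15 genes is lowest on the 3 PHIL arrays at 7 dpi. On the right, 10 of the 15 lie below zero.

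Genes that work beside the complexes were counted from lists. Beside these counts, 15%, 11.9% and 11.4% of all genes were called lower at 7 dpi in Rag1-/-, WT and PHIL mice, and 17.6%, 16.3% and 14.9% higher. All 3 measured complex II genes, Sdhb, Sdhc and Sdhd, were called lower in Rag1-/- mice at 7 dpi, with log2 changes of -0.92, -0.79 and -0.84, and none was called in WT or PHIL mice. Cycs, cytochrome c itself, fell in all 3 strains (-0.90, -0.68 and -0.91 in Rag1-/-, WT and PHIL mice). Among assembly factors outside the naming rule, 7 of 25 were called lower in Rag1-/-, 4 of 24 in WT and 4 of 24 in PHIL mice, and none higher, with Lrpprc, a regulator of mitochondrial mRNA, at -1.46 in Rag1-/- mice. Of 9 genes of coenzyme Q synthesis 7, 3 and 4 were called lower, and Coq8a was at -1.35, -1.03 and -0.79.

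Mitochondrial ribosomal proteins were called lower for 14 of 71, 6 of 68 and 9 of 68 genes, and higher for 1, 0 and 0, where 15%, 11.9% and 11.4% of all genes were called lower in Rag1-/-, WT and PHIL mice. Genes of mitochondrial protein import were called lower for 3 of 19, 3 of 15 and 2 of 15. Of 8 genes of mitochondrial DNA maintenance and transcription 4, 1 and 3 were called lower. Of 9 transcription factors and coactivators of mitochondrial biogenesis 5, 2 and 3 were called lower and 0, 1 and 2 higher. Esrrb, an estrogen-related receptor, fell in all 3 strains (-1.24, -1.11 and -0.86), and the coactivator Ppargc1a was called in Rag1-/- mice (-0.81), with values of -0.30 and -0.44 in WT and PHIL mice. Of 9 genes of ATP export and related carriers 2, 3 and 3 were called higher. They include Atpif1, the inhibitor protein of ATP synthase (log2 changes of 1.27, 0.96 and 0.81), and Slc25a5, an ADP/ATP exchanger (0.63, 0.86 and 0.73), and in WT and PHIL mice also Ckmt1, a mitochondrial creatine kinase (1.61 and 1.66). Of 11, 10 and 10 hypoxia response genes 3, 2 and 1 were called higher and 4, 3 and 2 lower.

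Markers of cell types were counted in the same way. At 7 dpi 17.6%, 16.3% and 14.9% of all genes were called higher in Rag1-/-, WT and PHIL mice, and 15%, 11.9% and 11.4% lower. Macrophage and monocyte markers were called higher at 7 dpi for 14 of 16, 14 of 15 and 12 of 15 genes in Rag1-/-, WT and PHIL mice, and none lower. Their summed signal in WT mice was 2642 to 3148 in naive mice, 10317 to 12215 at 2 dpi and 11468 to 15201 at 7 dpi, and it rose in the same order in the other strains. Fibroblast and matrix markers were called higher for 5, 5 and 2 of 12, with summed signals in WT mice of 8131 to 9645, 9503 to 11200 and 14650 to 18434. Of 26 muscle fibre markers 8, 4 and 4 were called lower and 1, 1 and 0 higher, and their sum fell in WT mice from 522355 to 523247 in naive mice to 480527 to 493272 at 7 dpi. Counts of fibre markers in WT and PHIL mice, and of fibroblast markers in PHIL mice, lay near the shares of all genes. The part of these cells in the changes of the members was not tested.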

How the data were processed

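RNA of 24 whole diaphragms, 1 array per mouse, was labelled with biotin and hybridised to Illumina mouse arrays. The deposited table holds signal intensity and detection p-value per probe, exported by the authors without normalization, per the labels with GenomeStudio 1.8. A second table deposited by the authors holds intensity normalised over all arrays; it was used only as an alternative. Of 25697 probes, 23978 had 1 gene name. Background correction used normexp with the detection p-values (offset 16), followed by quantile normalization and log2, for the 8 Rag1-/- and the 16 WT and PHIL arrays separately, and for all 24 together where the Rag1-/- and WT responses were compared. Probes with detection p below 0.01 on at least 2 arrays were kept, and per gene the probe of highest interquartile range. Changes were tested with limma 3.58.1 in R 4.3.3 (residual degrees of freedom 5, 10 and 15) on all genes, with Benjamini-Hochberg adjustment over the 3 Rag1-/- comparisons together and per comparison otherwise. Calls needed an adjusted p of 0.05 or less and a log2 change of 0.59. Pairs of isoforms were tested by exact permutation within strain. A probe not detected on any array of a group gives a bound only, against the lowest signal detected on each array.

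The members and gene lists were chosen with earlier results of these data known. Genes named are those with the 2 largest called falls and the largest called rise per complex and strain at 7 dpi, both genes of isoform pairs, the members called at 2 dpi or between strains, the smallest change per complex, members whose probes disagree, and the leading genes of the other lists. The remaining members called at 7 dpi, Atpif1, Ppargc1a and second probes were added after their values were seen. The number of arrays limits the precision. The scripts were tested on simulated data. Alternatives covered background correction, scaling, filters, choice of probe, fold threshold, covariates, a replicate block and leaving out each array; 3 were added after seeing the data (genes near the ceiling left out, genes over 2-fold apart between sets left out, isoform pairs without Rag1-/- arrays).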

Additional observations from a re-analysis of the deposited data

Results flagged for a closer look

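The response of Ndufaf5 at 7 dpi differed between Rag1-/- and WT mice by -1.031 on the log2 scale in the fit of 24 arrays (SE 0.198, adjusted p 0.015), by a test of the difference itself. The probe had signals of 760.3 and 863.6 in naive Rag1-/- mice and 528.9 to 548.7 at 7 dpi. It was detected on 0 of 16 WT and PHIL arrays, with signals of 106.5 and 115.5 in naive WT mice, so the WT side is background. The other Ndufaf5 probe, detected on all 24 arrays, gave a difference of -0.30. The call was lost with the probe of highest mean, with probes detected on every array, with only the groups compared and without Rag1-/- naive replicate 1. Groups of 2 or 3 arrays were too small to look for single arrays that stand apart.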

How the results depend on the processing

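Cox6a1 and Cox8a kept their rise at 7 dpi under every alternative tried in all 3 strains, and lost the call only in Rag1-/- mice with Eif2s3y as covariate and, for Cox8a, in WT and PHIL mice at a fold of 2. That covariate itself differed without overlap between naive and 7 dpi Rag1-/- mice. Of 2260 values of single genes under an alternative, 2027 kept direction and side of the threshold, 130 lost a call, 21 gained one, 82 changed sign without being called, and no called one reversed, and 449 of 565 summary values stayed the same with no array left out. Median scaling in place of quantile normalization put the median of all genes at 0.31 and 0.38 in WT mice and at 0.20 and 0.40 in PHIL mice at 2 and 7 dpi; relative to all genes the members' median stayed below zero at 7 dpi (-0.41 in Rag1-/-, -0.54 in WT and -0.52 in PHIL mice). Under it the isoform pair Cox7a1 minus Cox7a2 at 7 dpi was -0.53 (adjusted permutation p 0.03), opposite to 0.03, and Cox8b minus Cox8a at 2 dpi was -0.26 (adjusted permutation p 0.028). Without Rag1-/- arrays Cox7a1 minus Cox7a2 at 2 dpi was -0.57. The cause was not tested for these or the values that follow, apart from stricter or looser thresholds and fewer genes or arrays. The correlation of same-numbered arrays had a median of 0.026 in Rag1-/- and 0.0004 in WT and PHIL mice (3 of 7 and 4 of 36 above 0.1). No pairing of mice by number was seen, but groups of 2 or 3 arrays are small enough to hide one. With the replicate block the number called in PHIL against WT mice at 7 dpi was 0 in place of 1, and no other count of calls moved by over 1.5 times. Signals near the ceiling of the Rag1-/- arrays and the small naive groups limit what can be seen.

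Without background correction, the number of members called was 2 (Rag1-/- 7 dpi against 2 dpi), 1 (WT 2 dpi against naive), 3 (WT 7 dpi against naive), 3 (WT 7 dpi against 2 dpi), 0 (PHIL 2 dpi against naive), 5 (PHIL 7 dpi against naive), 7 (PHIL 7 dpi against 2 dpi) and 4 (Rag1-/- minus WT response 7 dpi). In this setting the median was -0.24 (PHIL 7 dpi against naive) and -0.14 (Rag1-/- minus WT response 7 dpi). With median scaling, the number of members called was 4 (Rag1-/- 7 dpi against 2 dpi), 5 (WT 2 dpi against naive), 5 (WT 7 dpi against naive), 4 (PHIL 7 dpi against naive), 8 (PHIL 7 dpi against 2 dpi), 0 (PHIL against WT 7 dpi), 6 (Rag1-/- minus WT response 2 dpi) and 11 (Rag1-/- minus WT response 7 dpi). Of all members the median came to -0.41 (Rag1-/- 7 dpi against naive), -0.29 (Rag1-/- 7 dpi against 2 dpi), -0.079 (WT 2 dpi against naive), -0.083 (WT 7 dpi against 2 dpi), -0.12 (PHIL 2 dpi against naive), -0.12 (PHIL 7 dpi against naive), -0.023 (PHIL 7 dpi against 2 dpi), -0.021 (PHIL against WT naive), -0.073 (PHIL against WT 2 dpi), 0.0026 (PHIL against WT 7 dpi), -0.055 (PHIL minus WT response 2 dpi), 0.047 (PHIL minus WT response 7 dpi), 0.0032 (Rag1-/- minus WT response 2 dpi) and -0.26 (Rag1-/- minus WT response 7 dpi). With 24 arrays normalised together, the members' median was -0.11 (Rag1-/- 2 dpi against naive) and -0.18 (Rag1-/- 7 dpi against 2 dpi). On the authors' normalised intensities, the number of members called was 2 (Rag1-/- 7 dpi against 2 dpi), 1 (WT 2 dpi against naive), 3 (WT 7 dpi against naive), 3 (WT 7 dpi against 2 dpi), 0 (PHIL 2 dpi against naive), 5 (PHIL 7 dpi against naive), 7 (PHIL 7 dpi against 2 dpi) and 3 (Rag1-/- minus WT response 7 dpi). In this setting the median was -0.18 (Rag1-/- 7 dpi against 2 dpi), -0.19 (WT 2 dpi against naive), -0.17 (PHIL 2 dpi against naive) and -0.23 (PHIL 7 dpi against naive). With the probe of highest mean, the number of members called was 0 (PHIL 2 dpi against naive) and 0 (Rag1-/- minus WT response 7 dpi). Of all members the median came to -0.095 (Rag1-/- 7 dpi against 2 dpi), 0.046 (WT 7 dpi against 2 dpi), -0.25 (PHIL 7 dpi against naive) and 0.13 (Rag1-/- minus WT response 2 dpi). With Eif2s3y as covariate, the number of members called was 0 (Rag1-/- 7 dpi against naive), 1 (Rag1-/- 7 dpi against 2 dpi), 0 (PHIL 2 dpi against naive) and 0 (PHIL against WT 7 dpi). Their median was -0.17 (Rag1-/- 7 dpi against naive) and -0.075 (Rag1-/- 7 dpi against 2 dpi). At a fold of 2, the number of members called was 4 (Rag1-/- 7 dpi against naive), 2 (Rag1-/- 7 dpi against 2 dpi), 0 (WT 2 dpi against naive), 2 (WT 7 dpi against naive), 2 (WT 7 dpi against 2 dpi), 0 (PHIL 2 dpi against naive), 4 (PHIL 7 dpi against naive), 4 (PHIL 7 dpi against 2 dpi) and 0 (PHIL against WT 7 dpi). With no minimum fold, the number of members called was 1 (Rag1-/- 2 dpi against naive), 24 (Rag1-/- 7 dpi against naive), 16 (Rag1-/- 7 dpi against 2 dpi), 27 (WT 2 dpi against naive), 26 (WT 7 dpi against naive), 16 (WT 7 dpi against 2 dpi), 22 (PHIL 2 dpi against naive), 37 (PHIL 7 dpi against naive) and 22 (PHIL 7 dpi against 2 dpi). With offset 50, the number of members called was 1 (WT 2 dpi against naive), 3 (WT 7 dpi against naive), 0 (PHIL 2 dpi against naive), 2 (PHIL against WT 7 dpi) and 4 (Rag1-/- minus WT response 7 dpi). Without a detection filter, the number of members called was 0 (PHIL 2 dpi against naive) and 0 (PHIL against WT 7 dpi). In this setting the median was -0.23 (PHIL 7 dpi against naive). With probes detected on every array, the number of members called was 5 (WT 7 dpi against naive), 0 (PHIL 2 dpi against naive), 3 (PHIL against WT 7 dpi) and 0 (Rag1-/- minus WT response 7 dpi). Of all members the median came to 0.12 (Rag1-/- minus WT response 2 dpi) and -0.073 (Rag1-/- minus WT response 7 dpi). With the mean of a gene’s probes, the number of members called was 0 (PHIL 2 dpi against naive). With only the groups compared, the number of members called was 0 (PHIL against WT 7 dpi) and 0 (Rag1-/- minus WT response 7 dpi). With a trend and robust fit, the number of members called was 0 (PHIL 2 dpi against naive), 3 (PHIL against WT 7 dpi), 1 (Rag1-/- minus WT response 2 dpi) and 3 (Rag1-/- minus WT response 7 dpi). With array weights, the number of members called was 3 (PHIL against WT 7 dpi). Their median was 0.048 (WT 7 dpi against 2 dpi) and -0.078 (PHIL minus WT response 7 dpi). With p adjusted over 12 comparisons together, the number of members called was 0 (PHIL 2 dpi against naive) and 3 (PHIL against WT 7 dpi). With each set normalised alone, the number of members called was 3 (Rag1-/- minus WT response 7 dpi). In this setting the median was 0.14 (Rag1-/- minus WT response 2 dpi) and -0.055 (Rag1-/- minus WT response 7 dpi). Without members over 2-fold apart between the sets, the number of members called was 4 (Rag1-/- 7 dpi against naive), 3 (Rag1-/- 7 dpi against 2 dpi), 4 (WT 7 dpi against naive), 0 (PHIL 2 dpi against naive), 4 (PHIL 7 dpi against naive), 6 (PHIL 7 dpi against 2 dpi) and 0 (PHIL against WT 7 dpi).

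Leaving out each array in turn, the number called ranged over 0 to 2 (Rag1-/- 2 dpi against naive), 8 to 17 (Rag1-/- 7 dpi against naive), 3 to 8 (Rag1-/- 7 dpi against 2 dpi), 2 to 6 (WT 2 dpi against naive), 5 to 8 (WT 7 dpi against 2 dpi), 0 to 5 (PHIL against WT 7 dpi), 0 to 1 (PHIL 2 dpi against naive), 0 to 1 (Rag1-/- minus WT response 2 dpi) and 0 to 2 (Rag1-/- minus WT response 7 dpi). The members' median ranged over -0.11 to -0.069 (Rag1-/- 2 dpi against naive), -0.27 to -0.23 (Rag1-/- 7 dpi against naive), -0.18 to -0.12 (Rag1-/- 7 dpi against 2 dpi), -0.21 to -0.20 (WT 2 dpi against naive), -0.22 to -0.14 (WT 7 dpi against naive), -0.0037 to 0.055 (PHIL minus WT response 2 dpi), -0.096 to -0.033 (PHIL minus WT response 7 dpi), -0.077 to -0.023 (PHIL against WT 7 dpi), -0.23 to -0.18 (PHIL 2 dpi against naive), -0.071 to -0.029 (PHIL 7 dpi against 2 dpi), 0.067 to 0.12 (Rag1-/- minus WT response 2 dpi) and -0.12 to -0.070 (Rag1-/- minus WT response 7 dpi).
The counts that moved by over 1.5 times were Rag1-/- 7 dpi against naive, 8 without Rag1-/- naive replicate 1, 9 without Rag1-/- naive replicate 2 and 9 without Rag1-/- 7 dpi replicate 1; Rag1-/- 2 dpi against naive, 2 without Rag1-/- naive replicate 2; Rag1-/- 7 dpi against 2 dpi, 3 without Rag1-/- 7 dpi replicate 1; WT 2 dpi against naive, 6 without WT naive replicate 1 and 6 without WT 2 dpi replicate 1; PHIL against WT 7 dpi, 5 without WT 7 dpi replicate 1, 0 without WT 7 dpi replicate 2, 0 without WT 7 dpi replicate 3, 0 without PHIL 7 dpi replicate 2 and 0 without PHIL 7 dpi replicate 3; WT 7 dpi against 2 dpi, 8 without WT 7 dpi replicate 3; PHIL 2 dpi against naive, 0 without PHIL naive replicate 1 and 0 without PHIL 2 dpi replicate 2; Rag1-/- minus WT response 7 dpi, 2 without WT 7 dpi replicate 1, 0 without Rag1-/- naive replicate 1 and 2 without Rag1-/- naive replicate 2; Rag1-/- minus WT response 2 dpi, 1 without Rag1-/- naive replicate 1 and 1 without Rag1-/- 2 dpi replicate 2.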
